A study of Mus musculus with 8 samples.

Results

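The genes described here are 9 genes of myeloid growth and recruitment: Csf1, Csf1r, Csf2, Csf3, Csf3r, Prok1, Prok2, Prokr1 and Prokr2. They were chosen by name, because they are tied to myeloid-driven resistance of Lewis lung carcinoma (LLC) tumors to VEGF blockade, and the rule that names them uses no measured value. All 9 were found among the 22367 protein-coding genes of the mouse mm9 assembly that were measured. The study profiled 4 histone modifications by ChIP-seq in subcutaneous isografts of LLC-NR cells, which respond to VEGF-Trap, and of LLC-R cells. LLC-R is a resistant derivative obtained by 5 rounds of selection in mice under continuous VEGF-Trap. LLC-NR and LLC-R cells both derive from the murine LLC line and were grown in the right flank of female C57BL/6J mice. The mice were 6 to 8 weeks old when purchased and were housed for 1 week before the experiments. The labels name no drug given to the tumors that were sequenced. VEGF-Trap is a soluble decoy receptor that binds VEGF. The chromatin came from whole tumor tissue, so host leukocytes, vessels and fibroblasts were included with the carcinoma cells. Each pairing of line and mark has 1 library, 8 altogether, which means that LLC-R and LLC-NR were compared without replicates and that no p-value can be given.

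G-CSF (encoded by Csf3), M-CSF (Csf1) and GM-CSF (Csf2) are secreted colony-stimulating factors that drive the production of neutrophils and macrophages and mobilize them from bone marrow. Csf3r and Csf1r encode the receptors of G-CSF and M-CSF. Prokineticins are small secreted proteins that act on the G protein-coupled receptors encoded by Prokr1 and Prokr2. Prok2, also called Bv8, is made by myeloid cells under G-CSF, and it is known for promoting angiogenesis and myeloid cell mobilization in tumors that are refractory to VEGF antibodies. H3K4me3 and H3K9ac are marks of active promoters, H3K27me3 is the mark laid down by Polycomb repressive complexes, and H3K36me3 is deposited along gene bodies during transcription elongation.

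The deposited files list peaks, each as wide as the DNA of a nucleosome (147 bp) and with no height. The unit of every value below is therefore a number of peaks whose midpoints fall in a region, and it says how many nucleosome-sized intervals were called there, not how strongly each was marked. Libraries held between 5660458 and 9101721 peaks. A promoter (the 1.5 kb that begin 1 kb before the TSS and end 0.5 kb after it) held on average 4.91 (LLC-NR) and 4.61 (LLC-R) H3K4me3 peaks, 5.51 and 4.97 H3K9ac peaks, 4.56 and 5.46 H3K27me3 peaks, and 3.20 and 4.96 H3K36me3 peaks, and no promoter held more than 9 peaks in any library. Relative to 1468867 windows of the same size at least 5 kb from any TSS, the promoter mean was 1.53-fold (LLC-NR) and 1.43-fold (LLC-R) for H3K4me3 and between 0.866-fold and 1.12-fold in the other 6 libraries. In whole tumors, fewer cells of a type and less of a mark per cell cannot be told apart. Of the promoters of 50 marker genes for leukocytes, neutrophils, endothelial cells, fibroblasts and epithelial cells, every one held at least 1 H3K4me3 peak in both lines. These include the epithelial markers Epcam (4 for LLC-NR, 6 for LLC-R) and Krt8 (6 in both). Over all promoters, 4.86% (LLC-NR) and 4.87% (LLC-R) held 0 H3K4me3 peaks. A peak is thus common to nearly all promoters and does not single out the cell type that uses the gene.

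H3K4me3 peaks at the 9 promoters ranged from 3 to 7 in each line. In LLC-NR, 6 of the 9 promoters were at or above the mean of all promoters, against 63.8% of all, and in LLC-R 7 of 9, against 58.8%. For H3K9ac, 8 of 9 reached the mean in LLC-NR (62.3% of all promoters) and 9 of 9 did in the LLC-R library (70.5%). For H3K27me3, 8 of 9 reached it in LLC-NR (56.6% of all) and 9 of 9 in LLC-R (58.8% of all). For H3K36me3, 4 of 9 did in LLC-NR (43.6% of all) and 7 of 9 in LLC-R (69.7% of all). The LLC-NR count was 7 with the median of all promoters as the threshold or with a promoter that ended 1 kb downstream. In LLC-NR 3 of the promoters held 3 peaks, just under the mean of 3.20. An active mark and the Polycomb mark thus both reached their library means on most of these promoters. Reaching the mean is not enrichment, since the H3K27me3 promoter mean was 1.08-fold (LLC-NR) and 1.03-fold (LLC-R) that of far windows. Separate libraries of whole tumor tissue cannot show whether these marks lay together in the same cells. With the means as thresholds, a promoter is called bivalent when H3K4me3 or H3K9ac and also H3K27me3 reach the mean, and active when H3K27me3 does not. By this rule 8 of the 9 promoters were bivalent in LLC-NR, where 48.4% of all promoters were, and 9 of 9 in LLC-R, where 53.1% were. Csf2 was the exception, called active in LLC-NR with 4 H3K27me3 peaks and bivalent in LLC-R with 6. The state was the same in both lines for 8 of 9 members and for 62.1% of all promoters.

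**Figure D1:**
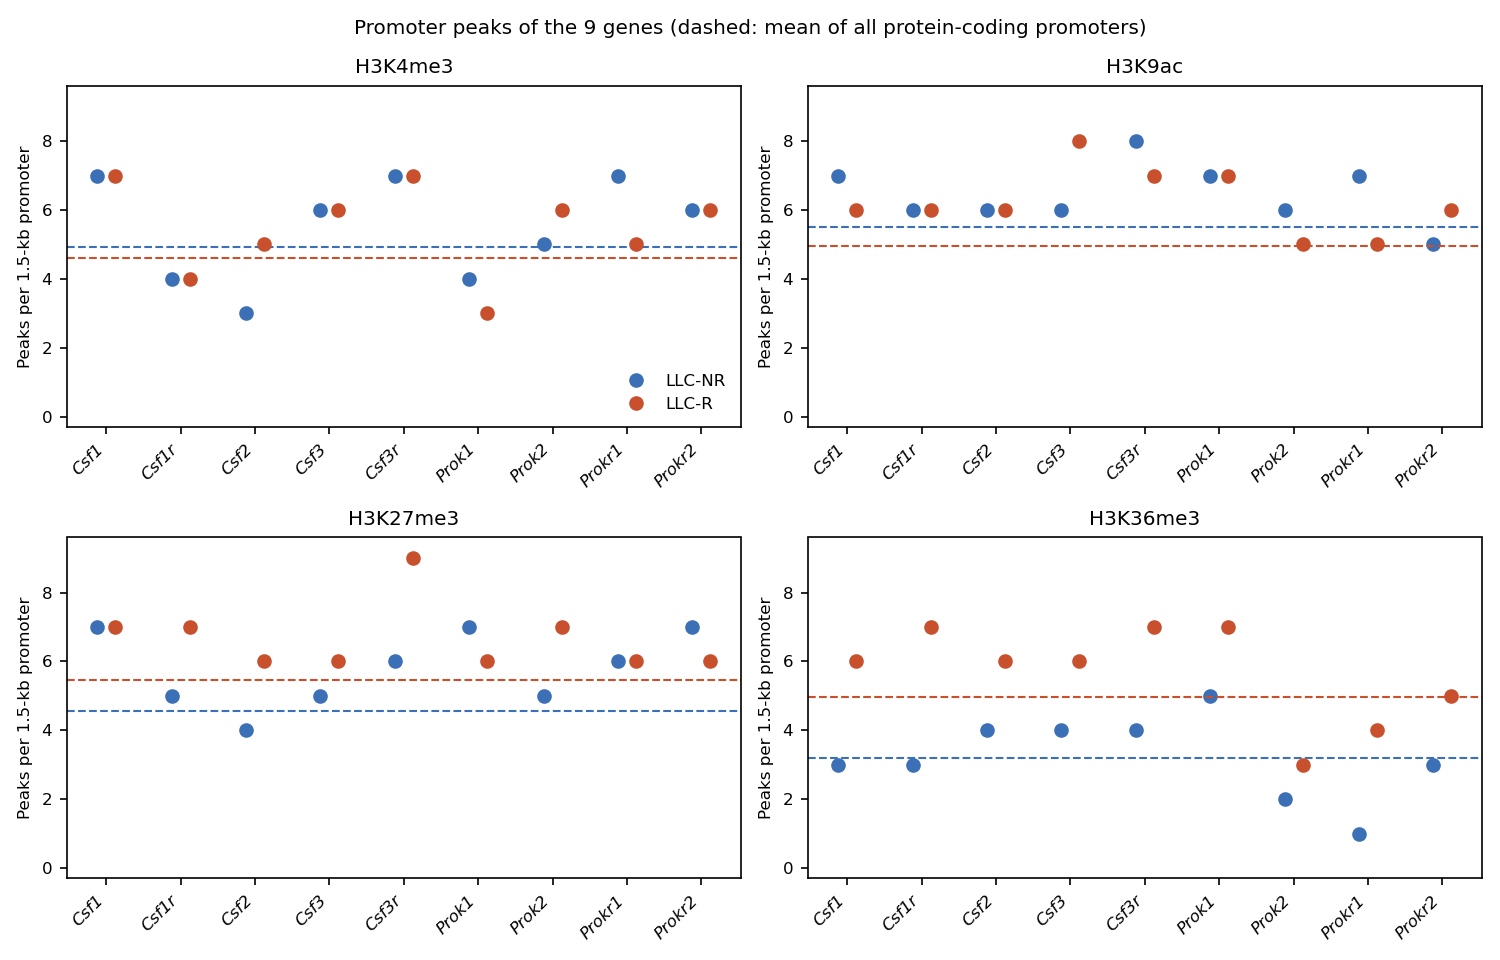
Peaks per 1.5-kb promoter (vertical axis) for the 9 genes (horizontal axis) in the LLC-NR and LLC-R libraries of each mark, with the mean of all protein-coding promoters of each library as a dashed line. Each point is 1 library. The H3K36me3 points of LLC-R lie above those of LLC-NR in 9 of 9 genes, as do the dashed lines (4.96 against 3.20), while H3K4me3 and H3K9ac points differ by at most 2 peaks.

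To compare LLC-R with LLC-NR, the peaks of a promoter were divided by the mean of all promoters of the same library, and a log2 ratio of at least 0.5 in size was counted. For H3K4me3, 1 member was higher in LLC-R by this count (Csf2) and 0 were lower, against 11.6% and 10.5% of all promoters. For H3K9ac, 1 was higher (Csf3) and 0 lower, against 6.36% and 8.27%. For H3K27me3, 0 were higher and 0 lower, against 15.4% and 6.71%. For H3K36me3, 2 were higher (Csf1r and Prokr1) and 0 lower, against 23.3% and 18.0%. These counts are close to what the shares of all promoters give in 9 genes. Every 95% counting interval of a promoter log2 ratio among the 9 genes and 4 marks included 0. These intervals treat called peaks as independent counts, though peaks of a library do not overlap and their number saturates. They do not measure the error between libraries, which needs replicates. The sign of the log2 ratio was the same under all 5 scalings that were tried for 9 of the 36 promoter values, and it depended on the scaling for the others. A scaling moves the ratios of all promoters of a mark alike, so such a turn does not bear on how a member stands against other genes. Relative to the scaling by all promoters, uniquely mapped reads shift the median log2 ratio by 0.18 (H3K4me3), 0.65 (H3K9ac), −0.84 (H3K27me3) and −0.58 (H3K36me3), and leaving the scaling out shifts it by −0.09, −0.15, 0.26 and 0.63.

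Csf3, a gene of 2.37 kb on chromosome 11 (98562577 to 98564943, plus strand) with a CpG-poor promoter, held 6 (LLC-NR) and 6 (LLC-R) H3K4me3 peaks. It held 6 and 8 H3K9ac peaks, 5 and 6 H3K27me3 peaks, and 4 and 6 H3K36me3 peaks. LLC-R exceeded LLC-NR in 3 of the 4 marks in number of peaks. Of all promoters, 19.2% (H3K9ac), 58.5% (H3K27me3) and 78.0% (H3K36me3) also held more peaks in LLC-R. For H3K9ac, 8 peaks lie at percentile 99.04 of all promoters of the LLC-R library and 6 peaks at percentile 54.1 of the LLC-NR library. The log2 ratio of H3K9ac was 0.53, with a counting interval of −1.15 to 2.37, and 6.36% of all promoters had a ratio at least as high. It ranged from 0.38 to 1.18 over the scalings. The count of members past the threshold went to 0 when peaks were scaled by the library's own total or by far windows, when they were not scaled, with a larger pseudocount, and with a promoter that ended 1 kb downstream. When any overlap of a peak was counted, Prokr2 passed the threshold in its place. With the longer promoter H3K4me3 was the mark past the threshold instead, with 6 (LLC-NR) and 9 (LLC-R) peaks, of which 2 and 5 lay downstream of the TSS.

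Csf3r, the receptor gene of G-CSF, spans 20.4 kb on chromosome 4 (125701794 to 125722219, plus strand) and has a promoter of intermediate CpG content. Its promoter held 7 (LLC-NR) and 7 (LLC-R) H3K4me3 peaks, 8 and 7 H3K9ac peaks, 6 and 9 H3K27me3 peaks, and 4 and 7 H3K36me3 peaks. Among the 9 genes it had the most peaks at the promoter over both lines. Its 9 H3K27me3 peaks in LLC-R are the maximum of any promoter, which 22 of the 22367 promoters reached. The H3K27me3 log2 ratio was 0.30, with a counting interval of −1.33 to 2.10, and 19.998% of all promoters had a ratio at least as high. It was positive under 4 scalings and −0.54 when the libraries were scaled by uniquely mapped reads. In both lines a peak of H3K4me3, H3K9ac and H3K27me3 covered the Csf3r TSS, with midpoints between 49 and 66 bp downstream, while H3K36me3 had no peak over the TSS in either line.

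In Csf3r 2 positions upstream of the TSS held a peak in all 8 libraries, with midpoints within 20 bp of a common point. At least 2 such positions within 1 kb on either side of the TSS were found in 1.83% of all promoters. The midpoints lay between 989 and 949 bp upstream at the first position and between 806 and 784 bp upstream at the second. They spanned 40 bp at the first, the widest that the 20-bp rule allows, and 22 bp at the second. With a rule of 15 bp, 2 of the 3 shared positions of the 9 genes remained, and the first of Csf3r was the one lost. Both positions are intergenic, in mm9 at chr4:125700746-125700892 and chr4:125700929-125701075. Their DNA is shown because antibodies to active and repressive marks, in both tumor lines, gave a nucleosome-sized peak at the same place. Capitals mark CpG dinucleotides, 1 in the first sequence and 14 in the second, which holds a run of alternating C and G.
Csf3r upstream position, first: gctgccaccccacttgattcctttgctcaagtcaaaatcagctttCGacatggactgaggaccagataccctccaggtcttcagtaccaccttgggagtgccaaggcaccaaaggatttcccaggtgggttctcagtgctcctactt
Csf3r upstream position, second: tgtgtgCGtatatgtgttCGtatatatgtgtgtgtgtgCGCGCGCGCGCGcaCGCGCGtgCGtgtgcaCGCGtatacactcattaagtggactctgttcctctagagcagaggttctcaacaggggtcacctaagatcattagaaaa

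**Figure D2:**
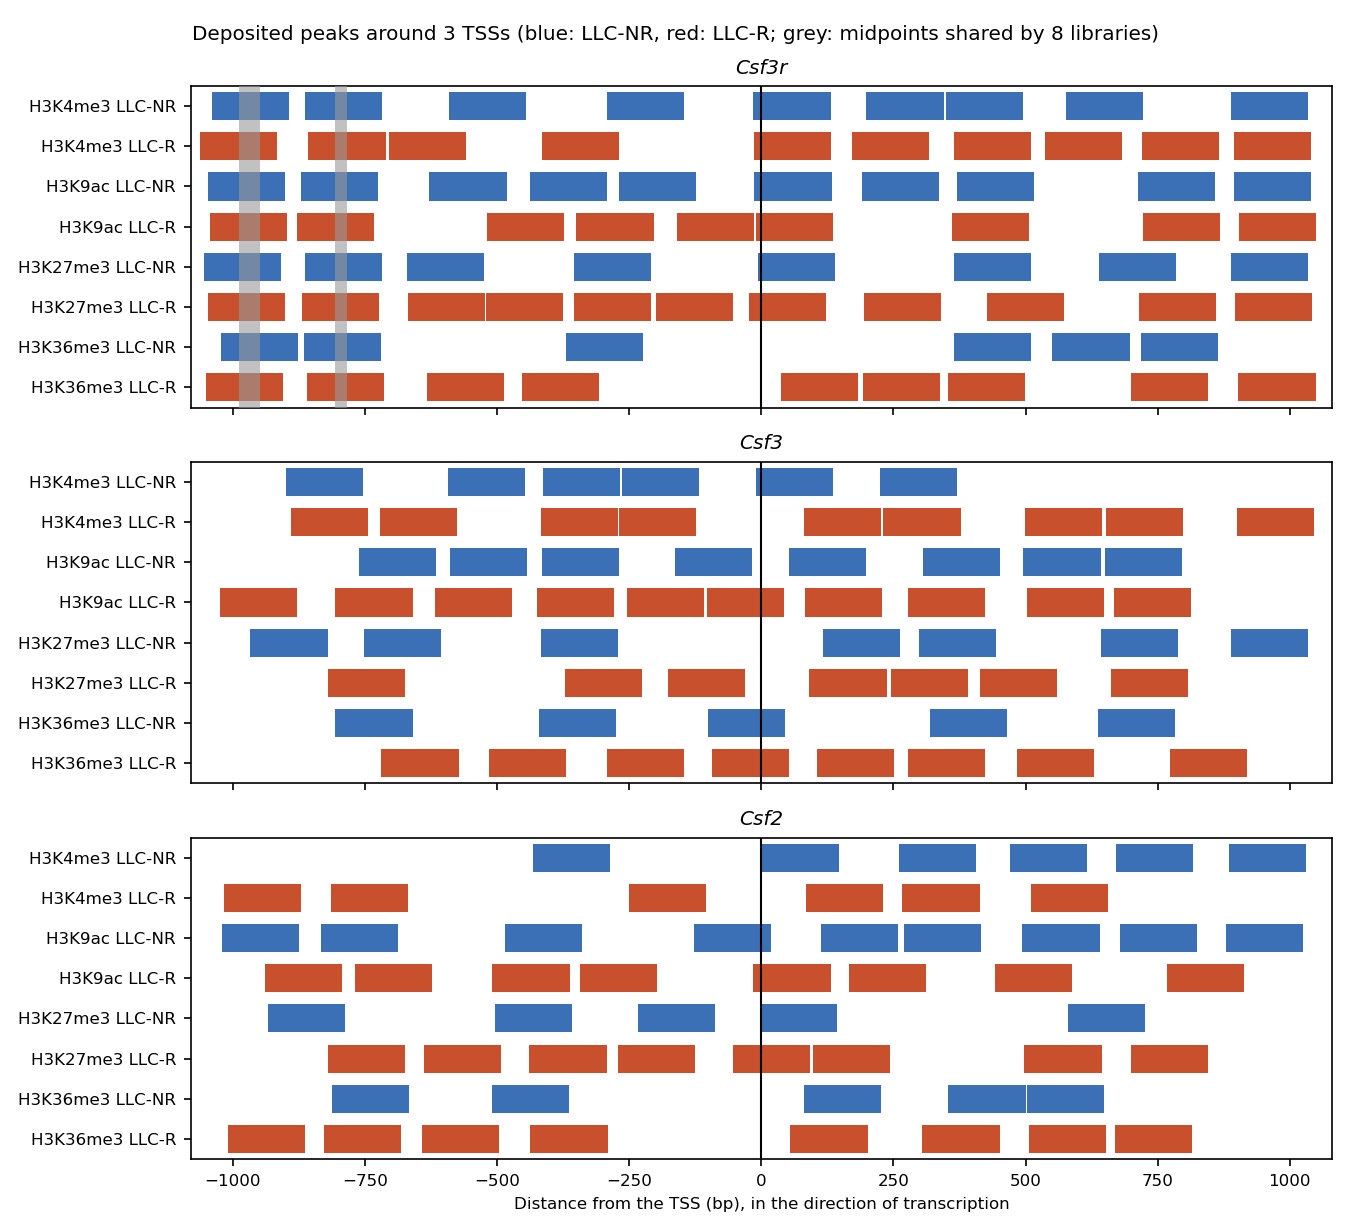
Deposited peaks (bars, 147 bp wide) of the 8 libraries (rows) by distance in bp from the TSS of Csf3r, Csf3 and Csf2, upstream on the left, with LLC-NR in blue and LLC-R in red. Grey bands in Csf3r span the midpoints of the 2 positions shared by 8 libraries, and Csf3 and Csf2 have 0 such positions.

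Csf2 is a gene of 2.40 kb on chromosome 11 (54060773 to 54063169, minus strand) with a CpG-poor promoter, and a predicted gene, Gm12223, lies partly in the same promoter interval. The promoter held 3 (LLC-NR) and 5 (LLC-R) H3K4me3 peaks, 6 and 6 H3K9ac peaks, 4 and 6 H3K27me3 peaks, and 4 and 6 H3K36me3 peaks. In LLC-NR it had the fewest H3K4me3 peaks of the 9 promoters, at percentile 18.6 of all, and in LLC-R it was at percentile 52.1. The log2 ratio of H3K4me3 was 0.74, with a counting interval of −1.53 to 3.52 and a range of 0.64 to 0.92 over the scalings. Within 1 kb on either side of the TSS the H3K4me3 libraries of LLC-NR and LLC-R held 6 peaks each, of which 1 (LLC-NR) and 3 (LLC-R) lay upstream, so that the lines differed in where peaks lay and not in their number over this wider interval. The member count was 0 when any overlap of a peak with the promoter was counted, and Csf2 was not past the threshold with a promoter ending 1 kb downstream. For H3K9ac, 0 of the 9 LLC-NR peaks around the TSS had an LLC-R peak within 20 bp, and for H3K27me3 0 of 5 did. At all promoters 40.7% of H3K9ac and 34.9% of H3K27me3 peaks had one, and in far windows 32.0% and 36.5%, so most peaks were unmatched there too.

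The DNA around the start of Csf2 is shown because Csf2 is the member past the threshold for promoter H3K4me3. Capitals mark the core of CK-1, a short element of cytokine promoters (GAGATTCC), the PU.1 core (GAGGAA or its reverse complement) and a C/EBP-like pair (TTNNGNAA on either strand). The CK-1 core overlaps the C/EBP-like pair and their capitals run together. The sequence reads 5′ to 3′ along the gene and is chr11:54063140-54063419 of NCBIM37, the assembly called mm9, on the minus strand, from 250 bp upstream to 29 bp downstream of the TSS.
Csf2: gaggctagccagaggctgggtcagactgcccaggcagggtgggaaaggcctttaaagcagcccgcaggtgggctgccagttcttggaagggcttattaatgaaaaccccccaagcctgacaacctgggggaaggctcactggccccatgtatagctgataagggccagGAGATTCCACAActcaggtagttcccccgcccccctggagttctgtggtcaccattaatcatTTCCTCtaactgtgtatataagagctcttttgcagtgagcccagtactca

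C/EBP factors and PU.1 are transcription factors of the granulocyte and macrophage lineages. Between 250 bp upstream and 29 bp downstream of the TSS, 0.832% of all promoters hold the CK-1 core on either strand, 25.8% the PU.1 core and 37.4% a C/EBP-like pair. In Csf2 the CK-1 core lay 82 to 75 bp upstream of the TSS, and of the 8 libraries the H3K9ac library of LLC-NR alone had a peak over it. These are matches of letters, and binding was not measured.

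Csf1, the M-CSF gene, spans 19.4 kb on chromosome 3 (107543966 to 107563387, minus strand) and has a CpG-rich promoter. It held 7 (LLC-NR) and 7 (LLC-R) H3K4me3 peaks, 7 and 6 H3K9ac peaks, 7 and 7 H3K27me3 peaks, and 3 and 6 H3K36me3 peaks. At 7 peaks, H3K4me3 was at percentile 84.9 of all LLC-NR promoters and percentile 91.8 of all LLC-R promoters. Of its 10 LLC-NR H3K4me3 peaks within 1 kb on either side of the TSS, 6 had an LLC-R peak within 20 bp. At all promoters 37.3% of H3K4me3 peaks had one. The lines differed at the Csf1 TSS itself. In LLC-NR an H3K4me3 peak covered the TSS, with its midpoint 21 bp upstream, and the nearest midpoint in LLC-R was 138 bp downstream. The distance between the peaks that flank the TSS was 165 bp (LLC-NR) and 394 bp (LLC-R), against medians of 305 and 333 bp over all promoters. A pair of further annotated TSSs lies about 9 kb inside the gene, 9263 and 9501 bp downstream, and at these the promoter interval held 7 H3K36me3 peaks in each library, compared with 3 and 6 at the main TSS. Csf1 also had 1 position shared by all 8 libraries, 710 bp downstream of the TSS in an intron, and at least 1 such position was found in 14.3% of all promoters and in 8.05% of windows far from any TSS. The other 7 genes had 0.

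Csf1r encodes the M-CSF receptor of macrophages, spans 26.6 kb on chromosome 18 (61265226 to 61291803, plus strand) and has a CpG-poor promoter. It held 4 (LLC-NR) and 4 (LLC-R) H3K4me3 peaks, 6 and 6 H3K9ac peaks, 5 and 7 H3K27me3 peaks, and 3 and 7 H3K36me3 peaks. Its H3K4me3 peaks were below the mean of all promoters in both lines, at percentiles 29.9 and 33.1. The nearest H3K4me3 midpoint was 113 bp (LLC-NR) and 112 bp (LLC-R) downstream of the TSS, and the peaks that flank the TSS were 637 and 562 bp apart, wider than the medians over all promoters. The H3K36me3 log2 ratio was 0.54, with a counting interval of −1.54 to 3.17, and it was −0.04 when scaled by uniquely mapped reads. Chromosome 18 as a whole took a larger share of the LLC-R peaks than of the LLC-NR peaks for all 4 marks, with log2 ratios of the shares between 0.10 (H3K9ac) and 0.20 (H3K4me3), and the part of this in the values of Csf1r was not tested.

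For H3K4me3 the prokineticin genes followed no common direction at the promoter, while for H3K36me3 all 4 held more peaks in LLC-R, as did 78.0% of all promoters. Prok1, a 4.18-kb gene on chromosome 3 (107038449 to 107042625, minus strand) with intermediate CpG content, held 4 (LLC-NR) and 3 (LLC-R) H3K4me3 peaks, 7 and 7 H3K9ac peaks, 7 and 6 H3K27me3 peaks, and 5 and 7 H3K36me3 peaks. With 3 H3K4me3 peaks in LLC-R it was the lowest of the 9 genes in that library (percentile 19.4), while its H3K9ac peaks were at percentile 92.1. Prok2, the Bv8 gene, spans 15.1 kb on chromosome 6 (99661293 to 99676386, minus strand), has a CpG-rich promoter and shares its promoter interval with Gm16748, so that peaks there cannot be assigned to one of the pair. It held 5 (LLC-NR) and 6 (LLC-R) H3K4me3 peaks, 6 and 5 H3K9ac peaks, 5 and 7 H3K27me3 peaks, and 2 and 3 H3K36me3 peaks. The H3K4me3 log2 ratios were −0.28 for Prok1 (interval −3.09 to 2.24) and 0.33 for Prok2 (interval −1.62 to 2.41), and both kept their sign under the 5 scalings.

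The promoter of Prok2 is shown because it holds an E-box of the form CACGTG, which contains the core of the hypoxia response element, ACGTG, on both strands. An E-box of this form was found in 7.40% of all promoters and the hypoxia core in 19.4%. Capitals mark the E-box, a C/EBP-like pair and a TATA box (TATAAA or its reverse complement). The sequence is chr6:99676357-99676636 of NCBIM37, minus strand.
Prok2: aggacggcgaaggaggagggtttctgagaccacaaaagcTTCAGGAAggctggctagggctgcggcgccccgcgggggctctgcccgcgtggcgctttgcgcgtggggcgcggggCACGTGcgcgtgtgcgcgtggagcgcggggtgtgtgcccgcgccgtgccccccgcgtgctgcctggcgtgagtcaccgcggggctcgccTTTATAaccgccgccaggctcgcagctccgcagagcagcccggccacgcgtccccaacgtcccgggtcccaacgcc

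The E-box of Prok2 lay 135 to 130 bp upstream of the TSS, under a peak of H3K4me3 and of H3K27me3 in both lines and under none of H3K9ac or H3K36me3. The TATA match of Prok2 was the reverse complement (TTTATA), 46 to 41 bp upstream of the TSS, and no library had a peak over it. Prok1 held the letters TATAAA on the gene strand, 63 to 58 bp upstream, and 13.0% of all promoters hold a match on either strand in this interval. These are matches of letters, and use of either as a TATA box was not measured.

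The receptors Prokr1 and Prokr2 carry the signal of both prokineticins. Prokr1 spans 12.1 kb on chromosome 6 (87528587 to 87540695, minus strand), with intermediate CpG content, and its promoter held 7 (LLC-NR) and 5 (LLC-R) H3K4me3 peaks, 7 and 5 H3K9ac peaks, 6 and 6 H3K27me3 peaks, and 1 and 4 H3K36me3 peaks. Both active marks were lower by 2 peaks in LLC-R, from percentile 84.9 to 52.1 for H3K4me3 and from 82.4 to 43.5 for H3K9ac. The log2 ratio was −0.36 for H3K4me3, with an interval of −2.39 to 1.48 and the same sign under all 5 scalings. It was −0.31 for H3K9ac, with an interval of −2.33 to 1.54, and 0.35 when scaled by uniquely mapped reads. The H3K36me3 log2 ratio of Prokr1 was 1.14, with an interval of −1.97 to 6.99, and positive under all 5 scalings (0.55 to 1.77), and it rests on 1 peak in LLC-NR. In LLC-NR, Prokr1 had 2 H3K4me3 midpoints 159 bp apart across the TSS, near the 147 bp at which peaks touch, and 461 bp apart in LLC-R.

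Prokr2 spans 47.7 kb on chromosome 2 (132163469 to 132211183, minus strand) and has a CpG-rich promoter. It held 6 (LLC-NR) and 6 (LLC-R) H3K4me3 peaks, 5 and 6 H3K9ac peaks, 7 and 6 H3K27me3 peaks, and 3 and 5 H3K36me3 peaks. An H3K4me3 midpoint lay 5 bp downstream of its TSS in LLC-NR and 6 bp upstream in LLC-R, the closest of the 9 genes in each line. H3K27me3 was at percentile 92.4 in LLC-NR and 57.1 in LLC-R, with a log2 ratio of −0.45 (interval −2.33 to 1.32), the same values as at Prok1, and both ratios were negative under all 5 scalings.

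Gene bodies hold more peaks than promoters and give narrower intervals. Of the 9 bodies, each the annotated gene from end to end, 0 were past a log2 ratio of 0.5 for any mark in either direction. Over all genes, 4.90% were higher and 4.63% lower in LLC-R for H3K4me3, 2.67% and 2.73% for H3K9ac, 9.22% and 2.70% for H3K27me3, and 9.40% and 1.35% for H3K36me3. The plain numbers of peaks differed in one direction where those of most genes did. For H3K27me3, LLC-R had more peaks in 9 of 9 bodies and in 85.6% of all bodies, and for H3K36me3 in 8 of 9 and in 89.3%.

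Prok1, Prok2, Prokr1, Prokr2 and Csf3r had the 5 densest H3K27me3 bodies of the 9 in LLC-NR. There they held 4.07, 4.04, 4.29, 4.11 and 4.26 H3K27me3 peaks per kb, at percentiles 90.1, 89.2, 95.7, 91.2 and 94.95 of all bodies. In LLC-R they held 4.31, 4.31, 4.38, 4.21 and 4.36 peaks per kb, at percentiles 86.5, 86.3, 90.2, 80.0 and 89.2. They did not stand apart from the other members in LLC-R, where Csf1 was at percentile 87.4 (4.32 peaks per kb) and Csf3 at percentile 80.9. Relative to the mean of all bodies the log2 ratio of H3K27me3 was negative in all 9 members (median −0.27, against 0.01 over all genes), and it was positive for Csf2 when scaled by the library's own peaks. Without scaling, which shifts the median of all bodies by 0.38, the ratios of the 9 were positive, from 0.05 to 0.36, and still below the median of 0.39 over all genes. Prokr2, the longest gene, went from 196 to 201 H3K27me3 peaks, with a log2 ratio of −0.32 and a counting interval of −0.64 to −0.05. Without scaling, and so with that shift, its ratio was 0.06. Peaks of a library do not overlap, so density saturates. The mean of all bodies was 2.72 H3K27me3 peaks per kb in LLC-NR and 3.55 in LLC-R. Bodies already dense in LLC-NR therefore had less room to rise with the mean. The part of saturation in these ratios, and in the interval of Prokr2, was not tested.

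Csf1 had a different body. It held 86 (LLC-NR) and 84 (LLC-R) H3K36me3 peaks, or 4.43 and 4.32 per kb, at percentiles 99.2 and 86.8. In LLC-NR this was the highest percentile of the 9 genes in any body library. Its H3K36me3 log2 ratio was −0.38, with an interval of −0.85 to 0.05, and 2.12% of all genes had a ratio as low. Under the 4 scalings used for bodies it was between −1.22 (uniquely mapped reads) and −0.0066 (no scaling). The mean of all bodies was 2.78 H3K36me3 peaks per kb in LLC-NR and 3.60 in LLC-R. Peak density saturates, so a body this dense in LLC-NR had little room to rise with the mean. The part of saturation in this ratio and its rank was not tested. H3K4me3 peaks in the Csf1 body numbered 77 in each line (percentiles 93.3 and 95.5), H3K9ac peaks 84 and 84, and H3K27me3 peaks 73 and 84. H3K36me3 peaks were spread evenly along the gene, with 21, 22, 22 and 21 peaks in the 4 equal parts from the 5′ to the 3′ end for LLC-NR, and 19, 24, 20 and 21 for LLC-R.

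**Figure D3:**
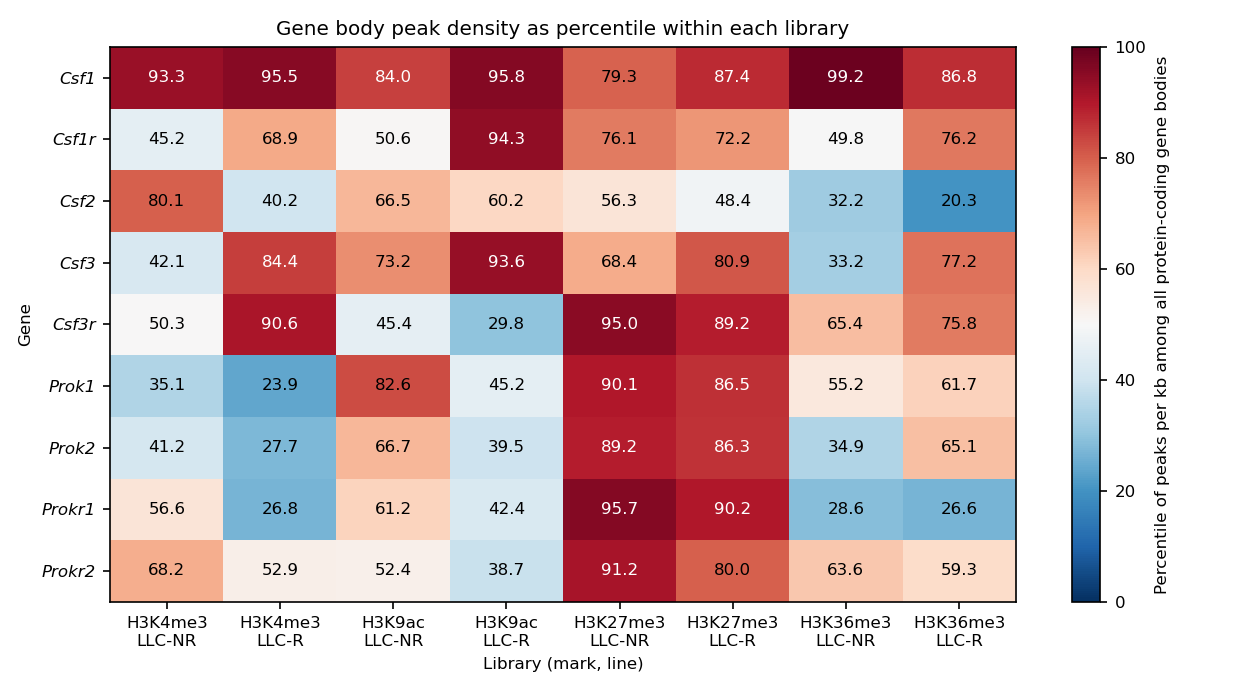
Percentile of each gene's peaks per kb of gene body among all 22367 protein-coding genes of the same library, for 9 genes (rows) and 8 libraries (columns), from 0 (blue) to 100 (red). Csf1 is high for H3K36me3 in LLC-NR (99.2), and the 4 prokineticin genes and Csf3r are between 80.0 and 95.7 for H3K27me3 in both lines.

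Among the 9 bodies, H3K4me3 differed most in that of Csf3r, where LLC-NR had 55 peaks and LLC-R had 74, at percentiles 50.3 and 90.6. The log2 ratio was 0.41 with an interval of −0.08 to 0.98, which includes 0, and 5.90% of all genes had a ratio at least as high. It was positive under all 4 scalings. LLC-R had more H3K4me3 peaks in each of the 4 equal parts of the gene, with 21, 21, 18 and 14 from the 5′ to the 3′ end, where LLC-NR had 19, 14, 14 and 8. H3K9ac went the other way in number of peaks, with 81 (LLC-NR) and 68 (LLC-R). The 2 Mb around the Csf3r TSS took a larger share of the H3K4me3 peaks of LLC-R than of LLC-NR, with a log2 ratio of 0.12 (percentile 90.8 among genes), and the body's own share had a ratio of 0.43.

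Csf1r showed a smaller difference of the same kind, with 69 and 80 H3K4me3 body peaks and a log2 ratio of 0.21 (interval −0.25 to 0.72). Here the surrounding 2 Mb had a ratio of shares of 0.17 (percentile 94.6) and the body's own share 0.22. Its H3K9ac peaks numbered 107 and 113, at percentiles 50.6 and 94.3, with a log2 ratio of 0.19 (interval −0.19 to 0.60). Its H3K36me3 peaks numbered 79 and 112, at percentiles 49.8 and 76.2, with a log2 ratio of 0.12 (interval −0.29 to 0.57). The H3K36me3 ratio was −0.72 when scaled by uniquely mapped reads. H3K27me3 peaks numbered 97 and 109.

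The 4 prokineticin genes each held fewer H3K4me3 and fewer H3K9ac body peaks in the resistant line, as did 45.4% (H3K4me3) and 77.3% (H3K9ac) of all bodies. H3K4me3 body peaks went from 10 to 9 in Prok1, from 38 to 34 in Prok2, from 34 to 27 in Prokr1 and from 145 to 130 in Prokr2, with log2 ratios between −0.29 and −0.12 whose intervals all included 0. Scaled by uniquely mapped reads, which shifts the median of all bodies by 0.25, the ratio stayed negative for Prokr1 and turned positive for the other 3. H3K9ac body peaks went from 18 to 15, from 63 to 53, from 50 to 43 and from 193 to 167. H3K36me3 body peaks of Prokr1 (29 and 43) were at percentiles 28.6 and 26.6, the lowest in LLC-NR among the 9 genes.

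The bodies of Csf2 and Csf3 are short and hold between 6 and 10 peaks of each mark. For H3K4me3, Csf2 had 8 (LLC-NR) and 6 (LLC-R) and Csf3 had 6 and 8, with log2 ratios of −0.36 and 0.40 and intervals of −2.20 to 1.32 and −1.28 to 2.24. These signs held under all 4 scalings, and without the first 0.5 kb each passed the threshold in its own direction. Both differences were of 2 peaks, and both counting intervals included 0.

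**Figure D4:**
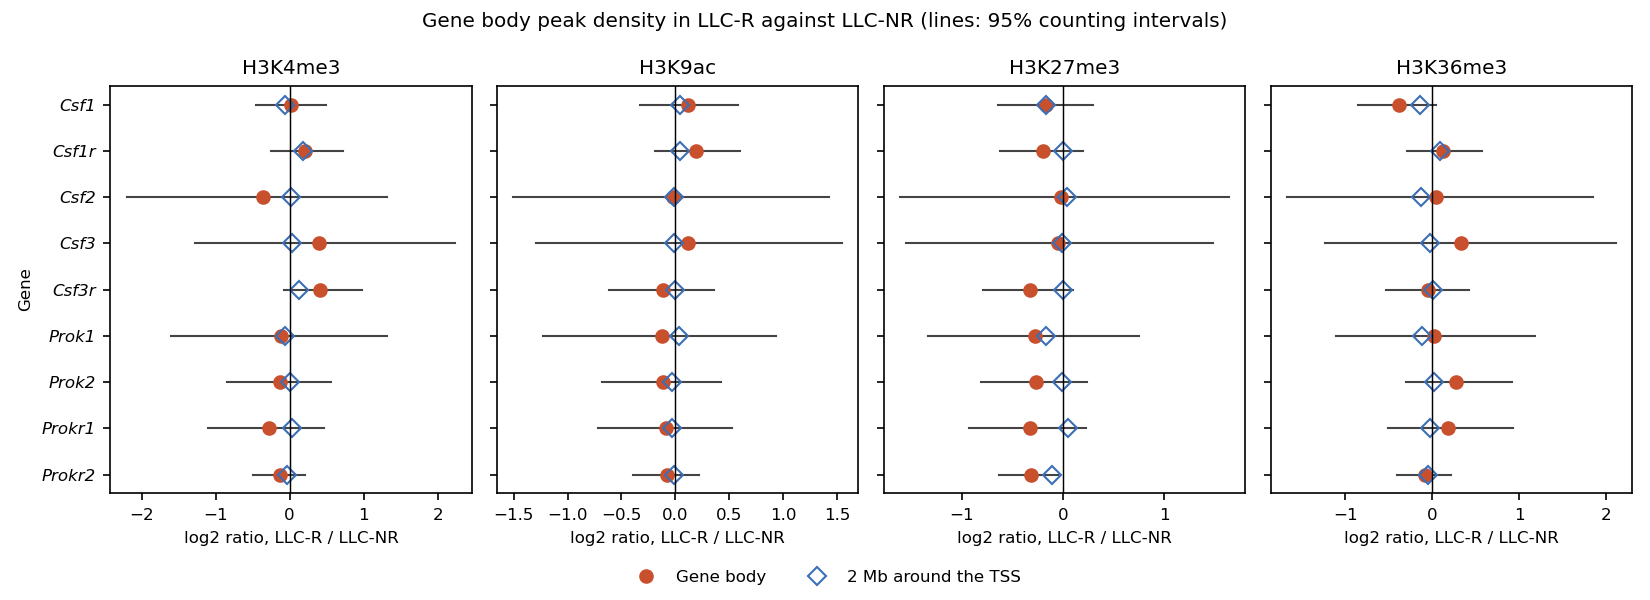
Log2 ratio of gene body peaks per kb in LLC-R over LLC-NR (filled circles), relative to the mean of all bodies of each library, with 95% counting intervals (lines), for 9 genes and 4 marks. Open diamonds are the log2 ratio of shares of peaks in the 2 Mb around the TSS. Of the 36 intervals only that of H3K27me3 in Prokr2 leaves out 0. The intervals treat peaks as independent, though their number saturates. Without scaling the 9 H3K27me3 ratios were positive (0.05 to 0.36), and the median of all genes was 0.39.

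Peak positions were compared between lines within 1 kb on either side of the TSS. Of the H3K4me3 peaks of LLC-NR at the 9 genes, 25 of 63 (39.7%, exact 95% interval 27.6 to 52.8) had an LLC-R peak with a midpoint within 20 bp, where 37.3% of peaks at all promoters and 19.6% in far windows did. For H3K9ac it was 21 of 78 (26.9%, interval 17.5 to 38.2), against 40.7% at all promoters and 32.0% in far windows. For H3K27me3, 30 of 67 matched (44.8%, interval 32.6 to 57.4), against 34.9% and 36.5%, and for H3K36me3, 14 of 45 (31.1%, interval 18.2 to 46.6), against 33.9% and 34.3%. H3K9ac was the mark whose interval lay below the share of all promoters, and it included the share of far windows. Its matches were uneven, with 6 of 10 peaks at Csf3r, 4 of 10 at Csf1 and 0 of 9 at both Csf2 and Prokr1. The interval treats peaks of a gene as independent, so it cannot show that the 9 genes match less than all promoters.

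The 2 Mb around Csf1 and around Prok1 overlap, and for H3K27me3 both took a smaller share of the peaks of LLC-R than of LLC-NR, with log2 ratios of −0.17 for each at percentiles 3.04 and 3.75 among genes. At the other 7 genes this ratio lay between −0.11 and 0.05. The body's own share had a ratio of −0.13 for Csf1 and −0.25 for Prok1.

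For each gene, the protein-coding genes with the most similar values were found over 16 measures (promoter peaks and body peaks per kb in 8 libraries, each standardised), by Euclidean distance. The nearest were Gar1 and Pdrg1 to Csf1, Lman1 and 4930443G12Rik to Csf1r, D17H6S56E-3 and Pde6g to Csf2, and Gna15 and Prss50 to Csf3. They were Nfam1 and Crabp2 to Csf3r, Xirp1 and Dusp27 to Prok1, Hydin and Pctp to Prok2, Stox1 and Pde10a to Prokr1, and Lyzl4 and Tmtc1 to Prokr2. The first of these distances lay between 0.88 (Prokr2) and 1.84 (Csf3r), and the median distance to all genes was between 3.39 and 4.47 for the 9 members. Csf3r, with the largest distance to its nearest gene, was the least matched. Among the members themselves Prok2 and Prokr1 were nearest to each other, at 1.92. Many other genes were closer to each, since Prokr1 ranked 120 by distance from Prok2, and Prok2 ranked 73 from Prokr1.

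The wider pathway was represented by 37 genes for other growth factor receptors, recruitment chemokines and lineage factors, of which 36 were measured. For promoter H3K4me3, 3 of the 36 were higher in LLC-R by the same rule (Csf2rb2, Stat5a and Cebpe) and 2 were lower (Il17a and S100a8), against 11.6% and 10.5% of all promoters and with a median log2 ratio of 0.09 against 0.08 over all promoters. Csf2rb2, a beta chain of the IL-3 receptor, held 3 and 6 peaks (log2 ratio 0.98), Stat5a, a transcription factor downstream of these receptors, 4 and 6 (0.62), and Cebpe, a factor of late granulocyte maturation, 5 and 7 (0.54). Il17a, a cytokine that acts upstream of G-CSF, held 6 (LLC-NR) and 1 (LLC-R) peaks (−2.06), and S100a8, a neutrophil protein, 7 and 4 (−0.65). For H3K27me3, 2 were higher (Flt3l and Cxcr4, both 4 and 7 peaks, log2 ratio 0.50) and 2 were lower, Csf2ra, the GM-CSF receptor alpha chain, with 6 and 4 peaks (−0.77) and Cebpb with 5 and 4 (−0.52). All promoters had 15.4% higher and 6.71% lower for H3K27me3, and the median was −0.24 for the 36 genes against 0 over all promoters. For H3K9ac 1 was higher and 3 lower, against 6.36% and 8.27% of all promoters. For H3K36me3 9 were higher and 7 lower, against 23.3% and 18.0%, shares near those of the 36 genes. Scaling by uniquely mapped reads, which shifts the median H3K27me3 ratio of all promoters by −0.84, turns the ratios of Flt3l and Cxcr4 negative.

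Markers of the cells that the tumors could hold were counted beside these genes. The promoters of 10 leukocyte markers held 56 (LLC-NR) and 44 (LLC-R) H3K4me3 peaks, those of 10 neutrophil markers 46 and 47, of 10 endothelial markers 48 and 42, of 10 fibroblast markers 52 and 48, and of 10 epithelial markers 50 and 47. By the same rule 0 leukocyte markers were higher in LLC-R and 3 lower, 2 neutrophil markers higher and 1 lower, 2 endothelial markers higher and 3 lower, and 1 higher and 1 lower among both fibroblast and epithelial markers, against 11.6% and 10.5% of all promoters. No marker was without an H3K4me3 peak in either line, and of all promoters 4.86% (LLC-NR) and 4.87% (LLC-R) were. S100a8, S100a9 and Cxcr2 are in both the pathway list and the neutrophil list. Macrophages express Csf1r and neutrophils Csf3r, and the part of cell composition in the values of these genes was not tested.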

How the data were processed

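ChIP-seq of H3K4me3, H3K9ac, H3K27me3 and H3K36me3 was done on MNase-digested chromatin of LLC-NR and LLC-R isografts, with 1 library per line and mark. Reads were aligned by the authors to mm9, using Bowtie 0.12.7, allowing 2 mismatches, kept uniquely mapped reads and called peaks per library with GeneTrack, whose settings are not given in the sources used here. The deposited files hold peak positions in bp, with no height, score or strand, and an end minus start of 146. Peaks of a library do not overlap, so their number saturates. No input library was used here. The number of peaks per library is 5660458 to 9101721.

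Genes were taken from GENCODE vM1 and sequence from NCBIM37, whose chromosome lengths match mm9. The 22367 protein-coding genes of the autosomes and of X and Y each had the TSS of most transcripts, and the upstream one in ties. A peak counted by its midpoint in the promoter (from 1 kb before the TSS to 0.5 kb after it) or the body. CpG classes followed the rule of the study's methods. Log2 ratios are of values divided by the mean of all promoters, or bodies, of the library, with a pseudocount of 10% of that mean, and 0.5 was the threshold. Intervals of ratios are exact conditional binomial (95%), and shares of peaks have exact Clopper-Pearson intervals. Both treat peaks as independent and cover counting error only. Percentiles are mid-ranks among all genes of a library. Counting was tested on simulated data.

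The 9 members and all lists were chosen with earlier results of these data known. All members are named, other pathway genes where past the threshold for H3K4me3 or H3K27me3 (at most 3 in each direction), and the 2 nearest genes of each member. Gfi1 was not measured, since it is not protein-coding in this annotation. Alternatives covered scaling, region, overlap, TSS, pseudocount, threshold and a filter on promoters without peaks. Python 3.11.15, NumPy 2.4.6, SciPy 1.17.1 and Matplotlib 3.10.9 were used. The sequence of 1 promoter is not reported here.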

Additional observations from a re-analysis of the deposited data

How the results depend on the processing

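No paired analysis was possible because there was 1 library per line and mark and no result came from a test. For promoters, counts of members past the threshold moved as follows. Scaling by the library's own peaks, and likewise by far windows, gave 0 higher for H3K9ac and 2 lower for H3K27me3 (Prok1 and Prokr2). Scaling by the study's uniquely mapped reads gave 2 higher for H3K4me3, 8 higher for H3K9ac, 9 lower for H3K27me3, and 1 higher and 4 lower for H3K36me3, and it turned the H3K36me3 ratio of Csf1r to −0.0395. That scaling shifts the median log2 ratio of all promoters by 0.18 for H3K4me3, 0.65 for H3K9ac, −0.84 for H3K27me3 and −0.58 for H3K36me3. Without scaling, 0 were higher for H3K9ac, 2 for H3K27me3 and 8 for H3K36me3. A promoter ending 1 kb downstream gave 0 higher for H3K9ac and 0 for H3K36me3, and 1 for H3K4me3, which was Csf3 in place of Csf2. Any overlap gave 0 higher for H3K4me3 and 1 lower for H3K27me3, and its 1 higher for H3K9ac was Prokr2 in place of Csf3. A pseudocount of 25% gave 0 higher for H3K9ac and 1 for H3K36me3, and a threshold of 1 gave 0, 0 and 1 higher for H3K4me3, H3K9ac and H3K36me3. The most upstream TSS and the filter moved no count.

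For bodies, scaling by reads gave 2 higher for H3K4me3, 9 higher for H3K9ac, and 9 lower for each of H3K27me3 and H3K36me3, with shifts of the median of all bodies of 0.25, 0.68, −0.72 and −0.84. No scaling gave 3 higher for H3K36me3. Without the first 0.5 kb, 1 was higher and 1 lower for H3K4me3, and from 0.5 kb to 3 kb downstream 1 was higher for H3K4me3 and 1 lower for each of H3K27me3 and H3K36me3. In LLC-NR, 7 members were at or above the H3K36me3 level of all promoters with a promoter ending 1 kb downstream, and 7 with the median as threshold. The cause of these differences was not tested. Of single ratios, the sign was the same under every scaling for 9 of 36 promoter values and 7 of 36 body values, and each scaling moved the ratios of all genes alike. Added after seeing the data, other settings left 8 or 9 members bivalent in each line, and 2 positions were shared by 8 libraries within 15 bp and 3 within 30 bp. The position lost within 15 bp was the first of Csf3r. Promoter counts of 1 to 9 peaks, which saturate because peaks of a library do not overlap, limit these comparisons.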
